A study of Mus musculus with 8 samples.

Results

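The regions described here are the called CLIP peaks that lay over microRNA genes in an anti-Zmat3 experiment in mouse embryonic fibroblasts. A peak was taken when it overlapped, by at least 1 nt, a gene of biotype microRNA in the RefSeq gene table of mm10 on an autosome, and overlapped no snoRNA gene. Of 978429 called peaks in 7 lists, 853 met this rule (0.0872%). They covered 222 of the 1136 autosomal microRNA genes in the table (19.5%) and formed 255 separate sites once overlapping peaks of a strand were merged. Positions alone chose these peaks, and their measured values played no part in the choice.

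Zmat3 is a zinc finger protein that binds RNA, and the study used CLIP (UV crosslinking followed by immunoprecipitation of protein-bound RNA) to find what it binds. The 3 control lines had the genotype Cas9+;E1A;HrasG12V with the negative-control guide RNAs EV, SPA and ACOCA, and the knockout line had the genotype Zmat3-/-;E1A;HrasG12V and no guide RNA. All lines thus shared the oncogenes E1A and HrasG12V, introduced by retrovirus, and the knockout, a single line and a single library, also differed from the controls in the guide and in the Cas9 label. Per the labels the controls also went through 3 days of puromycin after the guide was introduced and 10 further days of culture, steps not stated for the knockout. Each line gave an immunoprecipitate (IP) with an anti-Zmat3 antibody and an input, both from RNA in the 35 to 110 kDa part of a gel. The lists gave, for each peak, the log2 fold of an IP over its input (3 controls and the knockout) or of a control IP over the knockout IP (3 controls), with a −log10 p-value. Peaks count as enriched here where the log2 fold and the −log10 p both reached 3.

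MicroRNAs are cut from longer transcripts, many of which are introns of protein-coding genes or long non-coding RNAs. The nuclear enzyme Drosha, with its partner Dgcr8, releases a hairpin of which the cytoplasmic enzyme Dicer leaves a short duplex, and one strand of it guides Argonaute to target mRNAs through its seed. Mirtrons are a minor class in which a short spliced intron takes the place of the Drosha product, so that the hairpin ends at a splice site. The Mir17 to Mir92-1 cluster and Mir21a are known as growth-promoting microRNAs in transformed fibroblasts, whereas Mir34a is a direct target gene of p53.

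The hairpins below are those on which the results turn, 3 that were enriched over input in several IPs including the knockout and 2 that were enriched over both comparators in a control. They are RefSeq sequences (GRCm38.p6), 5′ to 3′. Capitals mark the bases under called peaks in every over-input list that had a peak over the hairpin, namely all 4 lists for Mir18, Mir19a and Mir21a, the 3 controls for Mir6935 and control 3 alone for Mir7031.
Mir18: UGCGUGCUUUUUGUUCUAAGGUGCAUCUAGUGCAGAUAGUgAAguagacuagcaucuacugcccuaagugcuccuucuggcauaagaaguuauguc
Mir19a: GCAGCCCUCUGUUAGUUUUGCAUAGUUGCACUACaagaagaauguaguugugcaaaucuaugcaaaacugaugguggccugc
Mir21a: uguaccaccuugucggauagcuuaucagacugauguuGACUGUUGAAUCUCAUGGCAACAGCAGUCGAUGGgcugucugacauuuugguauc
Mir6935: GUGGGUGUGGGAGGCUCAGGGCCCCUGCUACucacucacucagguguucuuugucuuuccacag
Mir7031: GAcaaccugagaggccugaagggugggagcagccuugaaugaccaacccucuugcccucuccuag
In Mir18 and Mir19a the shared bases (42 and 34) began at the first base of the hairpin. In Mir21a the 34 shared bases ran from the end of miR-21a-5p through the loop into miR-21a-3p. In Mir6935 they were the first 31 bases, and in Mir7031 the first 2.

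The mature microRNAs of the 9 genes of the Mir17 and Mir106b clusters are shown because several share a seed, with those of Mir21a and Mir34a beside them. They are printed with the seed (bases 2 to 8) in capitals, and those of one seed stand together.
mmu-miR-17-5p: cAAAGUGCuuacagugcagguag
mmu-miR-20a-5p: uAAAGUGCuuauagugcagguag
mmu-miR-93-5p: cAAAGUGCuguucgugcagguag
mmu-miR-106b-5p: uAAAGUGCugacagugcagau
mmu-miR-18a-5p: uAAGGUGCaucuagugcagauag
mmu-miR-19a-3p: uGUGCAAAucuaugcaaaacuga
mmu-miR-19b-3p: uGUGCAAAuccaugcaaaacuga
mmu-miR-25-3p: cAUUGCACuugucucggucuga
mmu-miR-92a-3p: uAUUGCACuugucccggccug
mmu-miR-21a-5p: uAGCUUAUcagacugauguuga
mmu-miR-34a-5p: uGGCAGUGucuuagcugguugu
The seed AAAGUGC joined 4 genes with a called peak, 2 of them in the Mir17 to Mir92-1 cluster (Mir17, Mir20a) and 2 in its paralog within Mcm7 (Mir93, Mir106b). The seeds GUGCAAA (Mir19a, Mir19b-1) and AUUGCAC (Mir25, Mir92-1) joined 2 genes each. Beyond these families, 4 called genes each shared the seed of Mir29, of Mir15 and Mir16, and of let-7.

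In all, 129323, 153768 and 122284 peaks were called over input for controls 1 to 3, against 167648 for the knockout. The depth behind each value is unknown. Peaks lay in 7 of 12 fibroblast marker genes (144 to 216 peaks in the controls and 190 in the knockout, among them Fn1, Vim and Sparc), and Col1a1, Col1a2, Thy1, S100a4 and Lox had none in the lists used here. Of 16 marker genes of other cell types, 4 held peaks, 9 to 12 in the controls and 19 in the knockout, with Epcam in every list. Of 30 microRNA genes typical of neurons, muscle, liver, blood, epithelium or embryonic stem cells, 1 had a peak, Mir155 of blood cells, with log2 folds over input of 1.02 in control 2 and 2.92 in control 3 and no peak in the other lists over input. Zmat3 itself held 39 to 48 peaks over input in the controls and 38 in the knockout.

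MicroRNA genes were recovered in the immunoprecipitates with and without Zmat3. Peaks over them numbered 104, 137 and 116 in controls 1 to 3 and 130 in the knockout, over 92, 121, 109 and 103 microRNA genes. The knockout list was also the longest, with 167648 called peaks against 129323, 153768 and 122284, and the counts were not scaled to list length. The knockout lay within the range of the controls in both raw counts (exact permutation test over libraries, two-sided, p = 0.75 for each). Since 1 library against 3 allows no p below 0.25, this and the other permutation p-values do not show that the counts are alike. Of the 222 genes, 29 had a peak in all 4 IPs, 72 in the knockout and at least 1 control, 119 in a control and not in the knockout, and 31 in the knockout alone. Presence was often a matter of 1 library, since 111 genes had a peak in only 1 of the 4 IPs. The same counts over genes of other kinds are not given here. Calls in only some IPs were common in the whole series. A called knockout peak overlapped 30.5%, 28.2% and 30.1% of all peaks of controls 1 to 3, against 47.1%, 56.9% and 56.0% of their microRNA peaks. A gene without a called peak has no level in these lists, and less RNA per cell cannot be told apart from fewer cells that express it.

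Enriched peaks over microRNA genes numbered 6 of 104 in control 1 (5.77%), 16 of 137 in control 2 (11.7%), 5 of 116 in control 3 (4.31%) and 11 of 130 in the knockout (8.46%). Among all called peaks of the same lists the enriched share was 1.02%, 1.05%, 0.494% and 0.316%. The share among microRNA peaks was higher than that of its list in every IP, the knockout included. The knockout count lay inside the range of the controls (mean 9 ± 6.08, SD, n = 3), and without control 2 the control mean was 5.5. The median log2 fold over input was 1.31, 1.30 and 1.60 in the controls and 1.23 in the knockout, where the medians of all peaks were 0.90, 0.60, 0.60 and 0.23. Log2 folds below 0, that is more signal in the input, were found at 16.3%, 16.8%, 19.8% and 22.3% of the microRNA peaks, and at 17.3%, 19.5%, 25.3% and 41.1% of all peaks.

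The genes fell apart by their number in the microRNA registry, which follows the order of annotation. Genes numbered under 1000, which hold the widely studied families, had median log2 folds over input of 2.31, 2.34 and 2.18 in controls 1 to 3 and 1.82 in the knockout. The knockout median lay below all 3 controls (exact permutation p = 0.25, the smallest this design allows). The knockout list had the most such peaks, 87 against 44, 67 and 63, but also the most called peaks of all kinds. Those totals were 167648 against 129323, 153768 and 122284, and the counts were not scaled to them. Genes numbered 5000 and above, most of them annotated from small RNA sequencing, had medians of 0.64, 0.41, 0.18 and −0.03 over 37, 43, 34 and 23 peaks. Genes numbered from 1000 up to 5000 had medians of 0.20, 0.27, −0.70 and −0.35 over input and no enriched peak in any list over input. Of the 21 genes with an enriched peak over input in some list, 18 were numbered under 1000 and 3 were numbered 5000 and above. Among all 222 genes with a called peak, 106 were numbered under 1000.

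**Figure D1:**
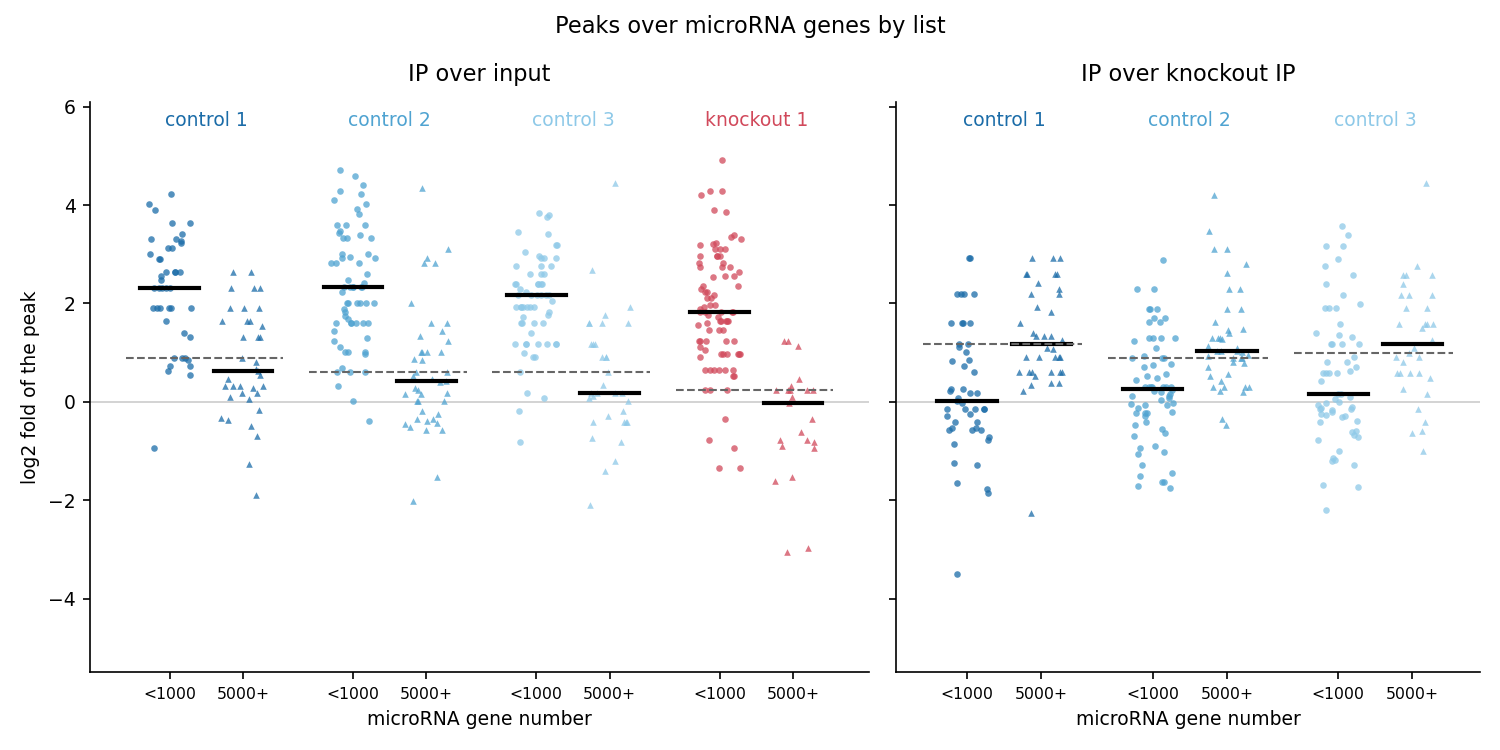
Log2 fold of every peak over a microRNA gene, by library and by the gene's number (circles under 1000, triangles 5000 and above; genes of other numbers are not drawn), over input at left and over the knockout IP at right. Black bars are medians of the points and dashed lines the median of all called peaks of the list; over input the medians of the low-numbered genes lie above the dashed line, over the knockout IP they lie below it, at 0.01, 0.27 and 0.17.

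Against the knockout IP the order was turned. All peaks over microRNA genes had median log2 folds of 0.83, 0.77 and 0.63 in controls 1 to 3, below the medians of all peaks of those lists (1.18, 0.88 and 1.00). Enriched peaks numbered 0 of 110, 3 of 139 and 1 of 117, where 0.621%, 1.09% and 0.648% of all peaks were enriched. Their mean was 1.33 ± 1.53 (SD, n = 3), and 0.5 without control 2. Peaks with a log2 fold below 0, that is with more signal in the knockout IP, made up 28 of 110, 30 of 139 and 35 of 117 (25.5%, 21.6% and 29.9%), where 11.4%, 16.5% and 15.1% of all peaks lay below 0. The 3 lists share the knockout library, so they are not independent of each other.

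Genes numbered under 1000 had medians of 0.01, 0.27 and 0.17 over the knockout IP, with 24 of 49, 26 of 68 and 28 of 63 peaks below 0 and none enriched. Genes numbered 5000 and above had medians of 1.18, 1.03 and 1.18, with 1 of 38, 2 of 43 and 5 of 34 peaks below 0. The low-numbered genes therefore had the higher medians over input and the lower medians over the knockout IP, and the high-numbered genes the reverse, in each control. Low-numbered genes within Sfmbt2, singled out after their values were seen, went against their group. All of them with a value over the knockout IP had means above 0, from 1.18 (Mir466f-1) to 3.17 (Mir669a-1). None of these had a knockout peak. Their −log10 p over the knockout IP stayed below 3, at most 2.42 (Mir466n). Other called peaks of Sfmbt2 were high as well, with medians over the knockout IP of 2.18, 1.88 and 2.39 in controls 1 to 3. The high values were thus not particular to the hairpins. A called knockout peak overlapped 47.1%, 56.9% and 56.0% of the microRNA peaks of controls 1 to 3, where it overlapped 30.5%, 28.2% and 30.1% of all their peaks. Of the enriched microRNA peaks, 6 of 6, 14 of 16 and 4 of 5 had a knockout peak at the same place, where 61.5%, 25.4% and 63.9% of all enriched peaks of those controls did.

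Of the 3 microRNA clusters set out along their length, the Mir17 to Mir92-1 cluster had the most peaks over hairpins in every IP. It also has the most hairpins, 6 against 3 in each of the others. It spans 836 nt at chr14:115043671-115044506 on the plus strand and holds 6 hairpins, from one long non-coding transcript whose RefSeq span, Mir17hg, begins in this table only at the end of Mir19b-1. Peaks over its hairpins numbered 4, 9 and 9 in controls 1 to 3 and 13 in the knockout, and 1, 4, 2 and 6 of these were enriched. Their log2 folds over input ran from 2.31 to 3.42 in control 1, from 2.24 to 4.60 in control 2, from 1.18 to 3.81 in control 3 and from 1.11 to 4.29 in the knockout. All of them lay above 0 in all 4 IPs.

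Mir18, which encodes miR-18a, was the one microRNA gene enriched over input in all 3 controls, and it was enriched in the knockout too. Its highest peak had log2 folds over input of 3.42, 4.60 and 3.81 in controls 1 to 3 (mean 3.94 ± 0.60, SD, n = 3) and 3.19 in the knockout, the lowest of the 4. The control IPs stood below the knockout IP at −0.53, −0.24 and −0.40. Mir19a, of the GUGCAAA seed family, had 2.56, 4.29 and 3.45 over input and 3.32 in the knockout, which lay between the controls. Its values over the knockout IP were −0.58, −0.07 and 0.17.

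Mir19b-1, which shares the seed of Mir19a, had 2.31, 4.10 and 3.40 over input in the controls and 3.86 in the knockout. Mir20a, a member of the AAAGUGC family, had 3.12, 2.92 and 2.40 in the controls and 3.89 in the knockout, above all 3. Mir92-1, which encodes miR-92a, had no called peak in control 1, 3.02 and 2.77 in controls 2 and 3, and 4.29 in the knockout. That knockout peak overlapped the hairpin by 1 nt, and the next highest, at 4.20, overlapped it by 42 nt. By the highest peak of each gene, Mir17 had the lowest value over input of the cluster in each library with a peak over it, with no peak in control 1, 2.60 and 1.92 in controls 2 and 3 and 1.11 in the knockout. Set against the knockout IP, the peaks of the cluster lay below 0 in 4 of 4, 6 of 8 and 8 of 9 cases, with medians of −0.55, −0.23 and −0.68.

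**Figure D2:**
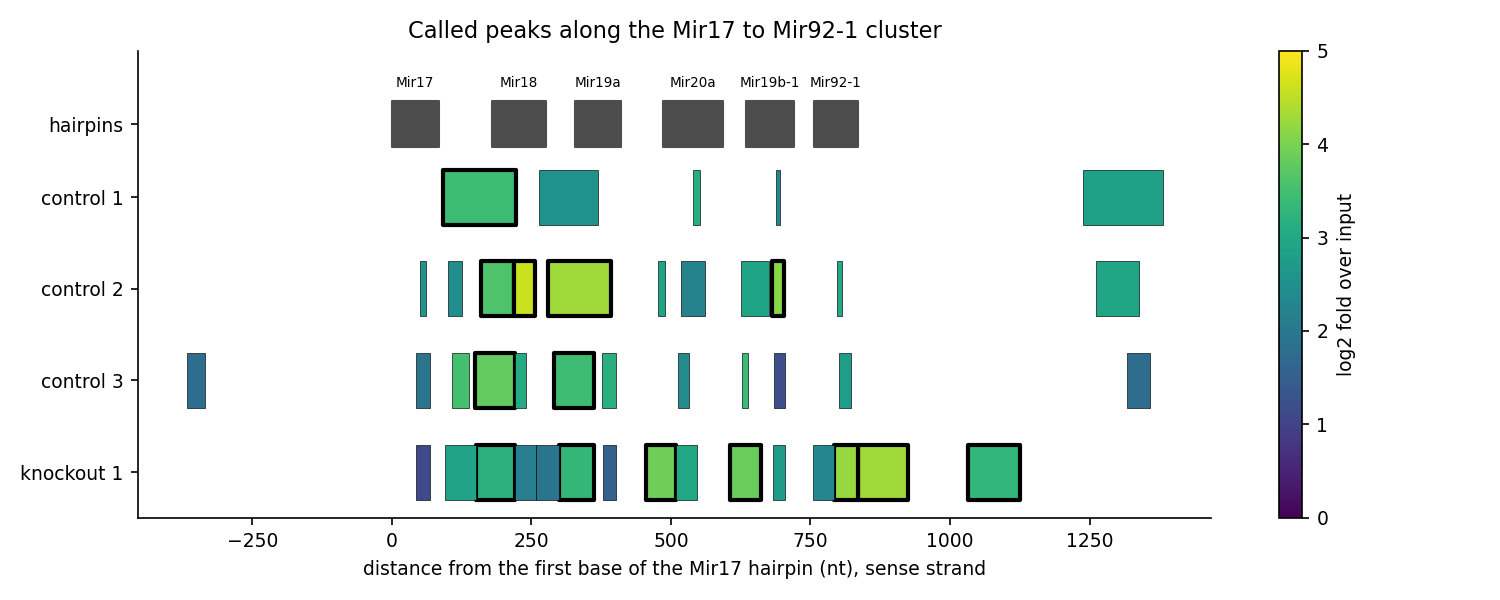
Called peaks over input along the Mir17 to Mir92-1 cluster in each library, with the hairpins in grey, distance in nt from the first base of the Mir17 hairpin on the sense strand and colour for the log2 fold over input; thick outlines mark enriched peaks. Peaks lie over all 6 hairpins in control 2, control 3 and the knockout, and the knockout list has 13 peaks over hairpins, several of which touch each other.

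The paralogous cluster Mir106b to Mir25 lies within Mcm7, a gene of the replicative helicase, at chr5:138165321-138165818 on the minus strand. Over its hairpins lay 2, 4 and 5 control peaks and 6 knockout peaks, of which 1, 2, 0 and 1 were enriched. Mir106b had log2 folds over input of 4.22, 2.34 and 2.92 in the controls and 2.55 in the knockout. Its highest value, in control 1, came from a peak that overlapped the hairpin by 3 nt. Mir25 had 3.02, 3.92 and 2.30 in the controls and 3.11 in the knockout, and Mir93 had 3.34, 2.60 and 2.82 in control 2, control 3 and the knockout. Against the knockout IP, Mir106b stood at 0.26, 0.20 and 0.70 and Mir25 at −0.02, 0.23 and −0.18, so that no value of either reached 1.

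Counted as a list, all 9 genes of these 2 clusters had a called peak in a control and in the knockout, and 8 of the 9 were enriched over input in some list. Of all 1136 autosomal microRNA genes of the RefSeq table, 222 (19.5%) had a called peak, 103 (9.07%) in the knockout and 191 (16.8%) in a control, and 21 (1.85%) were enriched over input in some list. The median of their mean log2 folds over input was 3.08 in the controls, and the median in the knockout was 3.19. The median of their means over the knockout IP was −0.20, with 6 of 9 below 0. Over all genes numbered under 1000, to which these belong, that median was 0.59, and 26 of 88 genes lay below 0. Over all called genes it was 0.97, with 33 of 191 (17.3%) below 0.

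Mir21a was the microRNA gene with the highest value in the knockout. It lies within the span of Vmp1, an autophagy gene, at chr11:86584067-86584158 on the minus strand, and encodes miR-21a, which is abundant in fibroblasts and tumours. Its highest peak had log2 folds over input of 2.64, 4.23 and 3.84 in controls 1 to 3 (mean 3.57 ± 0.83, SD, n = 3) and 4.91 in the knockout, above all 3 controls. Control 1 and control 3 lay below the knockout IP, with −1.29, 0.12 and −1.69 over it in controls 1 to 3. In control 1 the −log10 p over input was 1.02, so that the peak was not enriched there, against 8.90, 3.45 and 9.40 in control 2, control 3 and the knockout.

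Of 45 autosomal genes on a list of microRNAs abundant in fibroblasts, Mir21a among them, 27 had a called peak, 21 of them in the knockout, and 6 were enriched over input in some list. These counts are 60%, 46.7% and 13.3% of the list, against 19.5%, 9.07% and 1.85% of all 1136 genes. The median of their means was 2.40 over input and 0.10 over the knockout IP, and 10 of the 23 with a value over the knockout IP (43.5%) lay below 0, against 17.3% of all genes with such a value. Mir23a, the first hairpin of a cluster with Mir27a and Mir24-2, had no peak in control 1, 4.72 and 3.77 in controls 2 and 3, and 1.82 in the knockout, below both controls. Its values over the knockout IP were 0.75 and 0.43. The other hairpins of that cluster went the other way, with Mir27a at −1.51 and −1.19 and Mir24-2 at −0.47 and −0.61 over the knockout IP in controls 2 and 3.

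Mir125a, a homologue of the worm microRNA lin-4 within Spaca6, had the most even values of the enriched genes with a peak in all 3 controls. Its log2 folds over input were 3.28, 2.94 and 2.98 in the controls (mean 3.07 ± 0.19, SD, n = 3) and 2.75 in the knockout, just below them. Its values over the knockout IP, −0.54, 0.08 and 0.63, lay on both sides of 0. Mir125b-1, its paralog in the long non-coding RNA Mir100hg, had 3.60 and 2.40 in controls 2 and 3 and 3.20 in the knockout, and −1.64 and −2.19 over the knockout IP. Mir103-2 in Pank2 had 2.90 and 3.48 in controls 1 and 2 and 1.76 in the knockout. Mir10b, of the Hox clusters, had 3.34 in control 2 and 0.65 in the knockout. Mir214, which lies with Mir199a-2 in the antisense transcript Dnm3os, had 2.31, 1.12 and 2.40 in the controls and 0.91 in the knockout, yet −1.65, −0.12 and −1.13 over the knockout IP.

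Of 12 autosomal microRNA genes linked to p53 in the literature, 5 had a called peak (41.7%, against 19.5% of all genes) and 2 were enriched over input in a list (16.7%, against 1.85%). Mir34a had 2.64 and 4.02 in controls 1 and 2, no peak in control 3, and 2.97 in the knockout. Its values over the knockout IP in controls 1 and 2 were −1.25 and 0.13. Mir16-1, which lies with Mir15a in Dleu2, had 2.31, 3.82 and 2.60 in the controls and 3.11 in the knockout, and −1.86, −0.42 and −0.59 over the knockout IP. Mir15a had a called peak in the knockout alone (2.82). Mir194-1 and Mir215, neighbours within Iars2, had 1.60 and 1.40 in control 3, and Mir194-1 had −1.35 in the knockout. For the p53-linked list the median over the knockout IP was −0.31, with 3 of 4 genes below 0, where 33 of all 191 genes with a value lay below 0.

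The let-7 family, regulators of differentiation and of Ras genes, had called peaks at 5 of 10 autosomal genes, all 5 in the knockout and 3 in a control, and none was enriched in any list. Among all microRNA genes 19.5% were called, 9.07% in the knockout and 16.8% in a control, and 1.85% were enriched over input. Mirlet7d had 2.82 and 1.82 in controls 2 and 3 and 3.40 in the knockout, with −1.07 and −0.42 over the knockout IP. Mirlet7a-1, its neighbour, had 2.02 in control 2 and 1.82 in the knockout, and −1.02 over the knockout IP. Mirlet7g in Wdr82 had 0.92 in control 3 and 0.97 in the knockout, with 0.90 over the knockout IP. The 3 genes with values thus included 2 below 0, where 17.3% of all genes with a value lay there.

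Other genes with high knockout values were Mir324 within Acadvl and Mir301 within Ska2. Mir324 had 3.64 and 2.48 in controls 1 and 2 and 3.35 in the knockout, and 0.60 and −0.94 over the knockout IP. Mir301 had 1.64, 3.34 and 2.18 in the controls and 3.23 in the knockout, and its values over the knockout IP, −0.40, 1.62 and 1.17, ran from below 0 to above 1. Mir7-1 within Hnrnpk, chosen after its values were seen, went the other way, with 4.02, 4.41 and 2.18 in the controls and 1.97 in the knockout. Its values over the knockout IP were 0.84, 1.23 and −0.29.

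**Figure D3:**
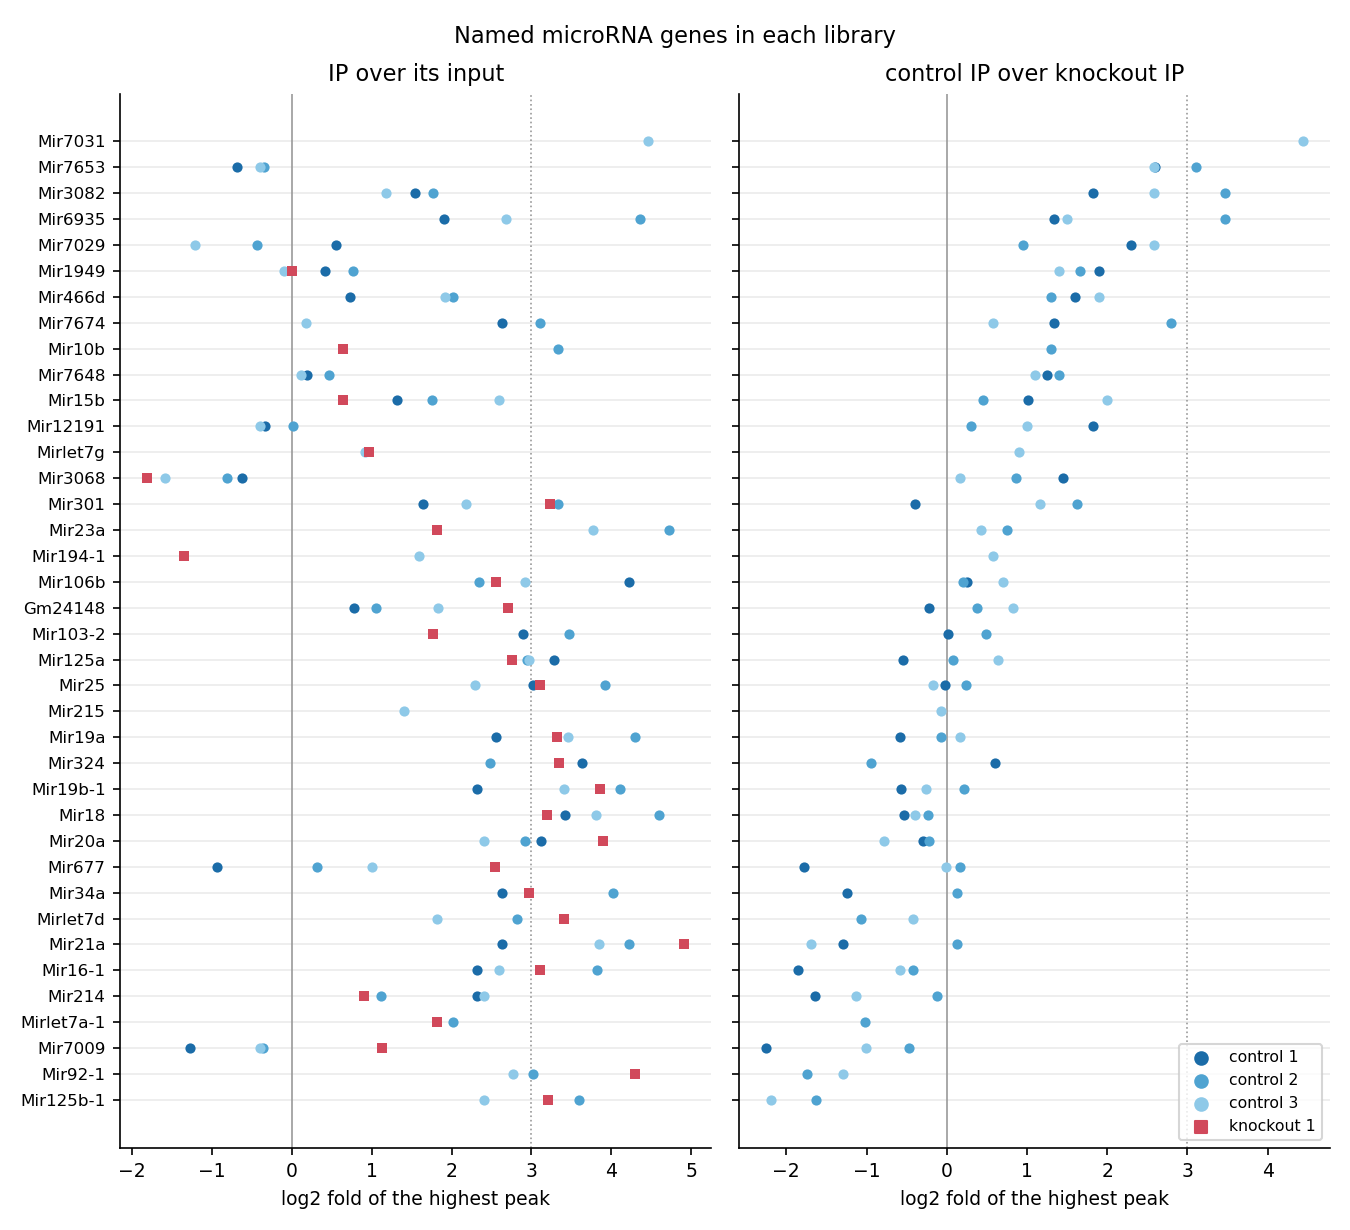
Log2 fold of the highest called peak over each named microRNA gene, over input at left (circles controls, squares knockout) and over the knockout IP at right, ordered by the mean over the knockout IP; a missing point means no called peak, and the dotted lines mark the log2 fold of 3. Mir18, Mir19a and Mir21a lie to the right over input in all 4 libraries and near or below 0 over the knockout IP, while Mir7031 and Mir6935 lie to the right in both panels with no knockout point.

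Enrichment over both comparators was found at 2 microRNA genes, Mir6935 and Mir7031, in 1 control each. The share of all called peaks enriched over both comparators is not given here, so this count has no background beside it. Mir6935 lies at chr11:120347350-120347413 on the minus strand within Actg1, the gene of a cytoplasmic actin. The peak over it had log2 folds over input of 1.90, 4.36 and 2.68 in controls 1 to 3 and 1.34, 3.47 and 1.50 over the knockout IP, and no knockout peak was called there. All 3 controls lay above 0 against both comparators, and only control 2 passed the threshold, in both. The peaks began 43, 45 and 51 nt before the hairpin and ended 30, 39 and 38 nt after its first base, so that they lay over the 5′ flank and the 5′ arm.

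Mir7031 lies at chr5:121819209-121819273 on the minus strand within Sh2b3, a signalling adaptor gene. The control 3 peak at chr5:121819272-121819360 covered the first 2 bases of the hairpin, and its log2 folds were 4.45 over input and 4.44 over the knockout IP. Controls 1 and 2 had peaks at nearly the same place that began at 121819274, directly beside the hairpin, and these did not meet the rule. Those peaks had log2 folds of 3.71 and 3.77 over input and 3.99 and 5.05 over the knockout IP. The site was thus enriched over both comparators in all 3 controls, with no knockout peak called, and it lay just before the 5′ end of the annotated hairpin rather than over it. The absence of a knockout peak was not tested, and 1 library against 3 allows no exact permutation p below 0.25.

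Mir3082 and Mir5134 were enriched over the knockout IP in control 2 and in no list over input. Mir3082, in the span shared by Jmjd8 and Stub1, had 1.54, 1.77 and 1.18 over input and 1.82, 3.47 and 2.58 over the knockout IP. All 3 controls lay above 1 against both comparators, and no knockout peak was called. Mir5134 within Ccnf, the cyclin F gene, had a peak in control 2 alone, with 2.92 over input and 4.20 over the knockout IP. Mir7653 in Tlcd1 had the highest mean over the knockout IP of the genes with values in all 3 controls (2.60, 3.10 and 2.58, mean 2.76 ± 0.30, SD, n = 3). Its −log10 p over the knockout IP was only 1.07, 1.58 and 1.06. Its values over input were −0.69, −0.35 and −0.40, below 0 in every control.

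Of the other genes with high means over the knockout IP, Mir7029 in Gcn1 had 2.30, 0.95 and 2.58, Mir1949 in Snhg4 had 1.89, 1.66 and 1.40, and Mir466d in Sfmbt2 had 1.60, 1.30 and 1.90. Mir7674 had 1.34, 2.80 and 0.58, Mir7648 in Alg10b had 1.25, 1.40 and 1.10, Mir15b in Smc4 had 1.01, 0.45 and 2.00 and Mir12191 in Fam53c had 1.82, 0.30 and 1.00. Of these 7, only Mir1949 and Mir15b had a called peak in the knockout, at −0.0025 and 0.65 over input. Mir7674 was the one of them enriched over input, in control 2 (3.10), with 2.64 and 0.18 in controls 1 and 3. The −log10 p over the knockout IP reached 3 in every control at Mir1949 alone (32.1, 21.5 and 13.5). Mir7029 reached it in control 1 (4.57) and Mir7674 in control 2 (3.42), and the rest of the 7 in no control.

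At the lower end stood Mir7009 in Anxa5, with −2.26, −0.47 and −1.0 over the knockout IP. Its log2 folds over input were −1.27, −0.36 and −0.40 in the controls and 1.13 in the knockout, on the other side of 0. Mir677 in Atp5b, a gene of the mitochondrial ATP synthase, had −0.93, 0.32 and 1.00 over input in the controls and 2.54 in the knockout, above all 3, and −1.78, 0.17 and −0.01 over the knockout IP. The genes with most peaks included Mir3068 in Alkbh1 (20 over all lists), which lay below 0 over input in every library (−0.62, −0.81 and −1.58, and −1.81 in the knockout). Gm24148 within Ncl, the nucleolin gene, had 0.78, 1.06 and 1.83 in the controls and 2.71 in the knockout.

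Host genes served as a reference for each hairpin. They were taken by position alone, whatever the strand of the gene, so a host need not be the transcript from which the hairpin is cut. Of the 853 peaks, 684 lay in the span of 1 host gene, 128 in none and 41 in several, and 157 genes were hosts. For each microRNA gene the median log2 fold of its peaks was set against the median of the other called peaks of its host on the same strand in the same list. Over input, the median difference over microRNA genes was 0.30, 0.40 and 0.32 in controls 1 to 3 (mean 0.34 ± 0.05, SD, n = 3) and 0.53 in the knockout. The knockout lay above all 3 controls (exact permutation p = 0.25, the smallest possible). The same difference over the knockout IP was 0, 0 and −0.06.

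In genes numbered under 1000 the microRNA peaks exceeded their hosts by a median of 0.74 in each control and 0.97 in the knockout over input, with 18 of 29, 29 of 37, 32 of 41 and 30 of 37 genes above their host. The control medians were a single repeated value, found at Mir30c-1, Mir10a and Mir101b in controls 1, 2 and 3. Their equality is thus no measure of the spread between controls. In the lists over the knockout IP the microRNA peaks lay below their hosts, with medians of −0.83, −0.23 and −0.49. In genes numbered 5000 and above the differences over input were 0.16, 0 and −0.21, and 0 in the knockout, and over the knockout IP they were 0.32, 0.25 and 0.32. With peaks that cover at least 50% of the microRNA gene, the median over input of all genes changed sign in the controls, to a mean of −0.077 ± 0.33 (SD, n = 3). Under that rule the difference of genes numbered under 1000 over input was 1.29.

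Of the genes with a host difference in all 4 IPs, Mir21a had the highest mean over input. Its difference from the other Vmp1 peaks was 1.70, 3.43 and 3.51 in the controls and 4.06 in the knockout, against 22, 21, 11 and 29 other peaks whose medians were 0.31, 0.02, 0.33 and 0.23. The difference over the knockout IP was −3.0, −0.73 and −1.43. Mir7-1 lay above Hnrnpk by 2.71, 4.0, 1.79 and 1.04, with the knockout lowest. Mir106b lay above Mcm7 by 2.75, 1.47, 2.08 and 2.16, and Mir125a above Spaca6 by 2.12, 1.83, 2.16 and 1.24. Mir6935 lay above the 4 to 5 other peaks of Actg1 by 0.65, 4.01 and 2.41 over input and by 1.12, 3.31 and 1.50 over the knockout IP.

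Of 12 genes numbered under 1000 with a host difference in all 4 IPs, 10 lay above their host over input in all 4, and 6 lay below it in all 3 lists over the knockout IP. None of the 12 lay above its host in all 3 lists over the knockout IP. Of 4 genes numbered from 1000 up to 5000, 3 lay below their host over input in all 4 IPs. These were Mir1843b in Cop1 (−3.11, −2.41, −2.72 and −3.49), Mir1839 in 2900076A07Rik (−1.29, −1.97, −2.69 and −2.58) and Mir3068 in Alkbh1 (−1.69, −1.44, −1.72 and −2.53). The host of Mir1839 had only 1, 1, 2 and 4 other called peaks in controls 1 to 3 and the knockout. Mir1843b and Mir1839 were named after their values were seen. Their peaks had less signal in every IP than in its input, while the other peaks of Cop1 had medians of 0.23 to 1.31.

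**Figure D4:**
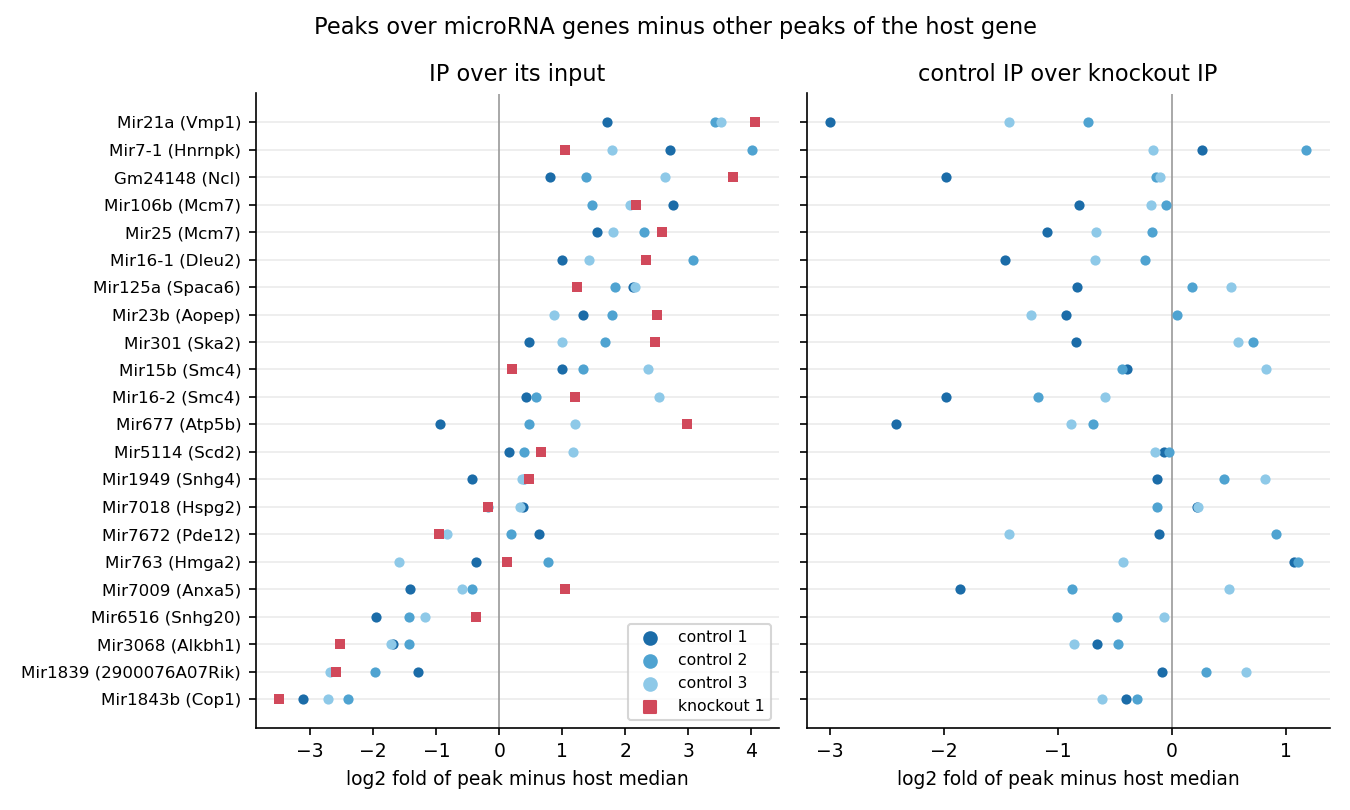
Log2 fold of the peaks over a microRNA gene minus the median of the other called peaks of its host gene (in brackets), over input at left and over the knockout IP at right, for the 22 genes with a value in all 4 IPs; circles are controls and squares the knockout. Mir21a, Mir106b, Mir25 and Mir16-1 lie to the right of 0 over input in all 4 libraries and to the left of 0 over the knockout IP in all 3.

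Peaks over the 2 number groups lay at different parts of the hairpin. Among peaks over input on the strand of the microRNA, in genes numbered under 1000, 127 of 215 (59.1%) lay wholly inside the hairpin, 77 (35.8%) extended beyond its 5′ end and 10 (4.65%) beyond its 3′ end. In genes numbered 5000 and above, 15 of 117 (12.8%) lay inside, 31 (26.5%) extended beyond the 5′ end and 65 (55.6%) beyond the 3′ end. In the knockout alone the shares were 63.2% inside and 2.63% beyond the 3′ end for the first group, and 27.8% inside and 55.6% beyond the 3′ end for the second. Of low-numbered peaks, 72.6% overlapped a mature microRNA and so did 79.5% of the high-numbered peaks. Peaks were short, with a median length of 46 nt against 49 nt over all lists.

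The position that most low-numbered hairpins had under a peak lay 51 nt after the hairpin's first base in the knockout (37 of 55 genes, 67.3%), 57 nt in control 2 (61.2%) and 53 nt in control 3 (63.4%). In control 1 it lay 4 nt after the first base (15 of 29 genes, 51.7%), with a lower second rise near the other maxima. High-numbered hairpins were covered most at 61 to 73 nt, near the end of a hairpin of the median length (65 nt), in 53.1% to 58.6% of genes. The positions of the knockout therefore lay within the range of the controls or next to it in both groups.

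**Figure D5:**
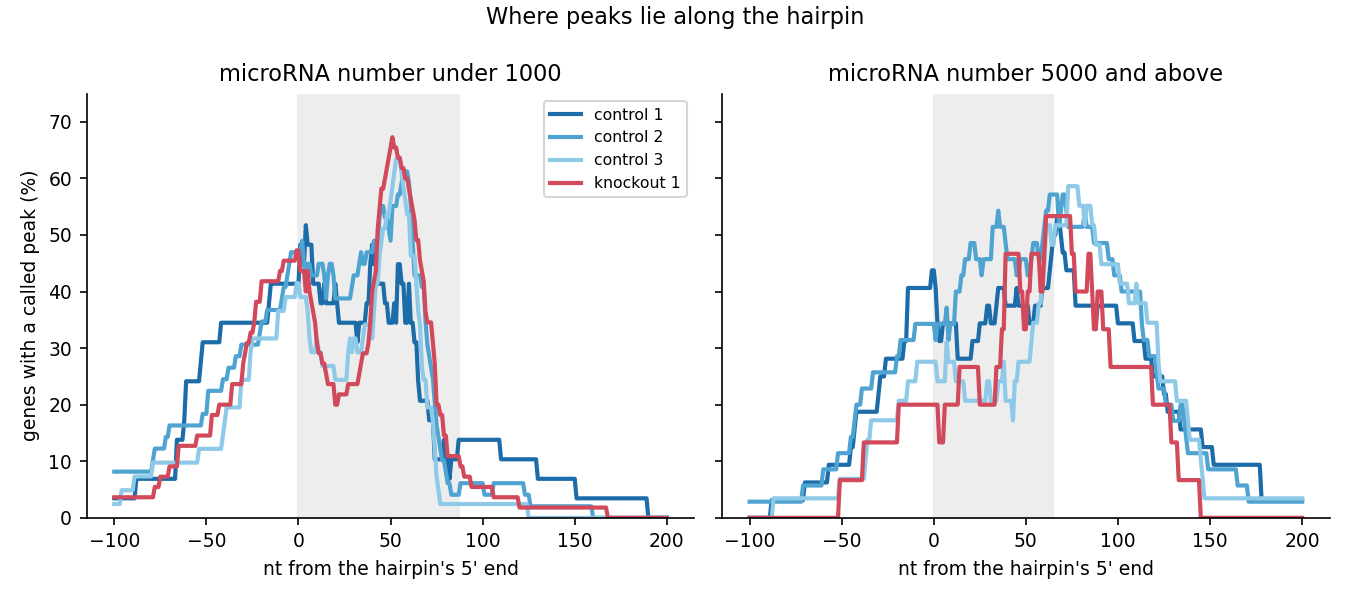
Share of microRNA genes with a called peak over input at each nt from the 5′ end of the hairpin, by library, for genes numbered under 1000 (left) and 5000 and above (right), among genes with a peak on the strand of the hairpin in that library; grey marks the median hairpin length. In the left panel 3 of the 4 libraries peak inside the hairpin at 51 to 57 nt, and in the right panel coverage is highest near its 3′ end, at 61 to 73 nt.

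The hairpins themselves differed in the same way. Of the low-numbered hairpins with a called peak, 5 of 78 (6.41%) ended in AG, the last bases of nearly all introns, as did 23 of 256 without a peak (8.98%). Of the high-numbered hairpins with a called peak, 39 of 70 (55.7%) ended in AG, as did 146 of 337 without one (43.3%). Mir6935 and Mir7031, printed above, both end in AG. Called high-numbered hairpins were shorter (median 65 against 87 nt) and richer in G and C (58.6% against 48.7%) than called low-numbered hairpins, with a uridine share of 23.0% against 28.5%. The 49 genes with a value over the knockout IP whose hairpin ended in AG had a median of 1.24, with 4 below 0, and the 113 with other ends had a median of 0.68, with 27 below 0. The number group and the hairpin end go together in these genes and were not separated.

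Most of these peaks followed the strand of the microRNA. Of 738 peaks over hairpins whose strand the sequence table gives, 711 (96.3%) lay on that strand and 27 on the other. Many reached the gene only at its edge, since 153 of the 853 overlapped it by 1 to 5 nt, 51 of them by 1 nt, and 125 further called peaks lay 1 to 5 nt outside a microRNA gene, as the control 1 and control 2 peaks at Mir7031 did. Among the edge peaks over input, the median log2 fold was 0.81, 0.48, 1.60 and 0.71 just inside and 1.54, 0.02, 0.06 and 0.06 just outside in controls 1 to 3 and the knockout. With an overlap of more than 5 nt asked for, a setting chosen after seeing the data, the controls had a mean of 8.33 enriched peaks over input and the knockout had 10.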

How the data were processed

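CLIP of Zmat3 gave 4 immunoprecipitates and 4 inputs. The authors deposited 7 peak lists on mm10, per the submitters' processing notes. For each peak the authors give a log2 fold of the IP against its comparator and the −log10 of a p-value; without a header, both units were inferred from the deposited values and column order. The −log10 p is capped at 400 and is 0 wherever the log2 fold is below 0. Aligner, peak caller and pseudocount: not given in the sources used here. Hence log2 folds at sites without comparator reads depend on an unknown setting. The lists hold no read counts, so the depth is unknown and no interval was computed.

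Peaks were joined to the RefSeq gene table and microRNA sequences (GRCm38.p6, the RefSeq release of mm10) with python 3.11.15, pandas 2.3.3 and numpy 2.4.6. The sequence table matched 919 of the 1136 microRNA genes and 184 of the 222 with a peak. The overlap step equalled bedtools 2.31.1, and the host comparison was tested on simulated data. A host is a protein-coding or long non-coding gene, on either strand, whose span holds the peak's midpoint, and the table gives no exons. A peak over several microRNA genes (13 peaks) counted once, under the first, in the counts of peaks by list. In gene counts, gene values and host differences it counted under each gene, so that Mir30e and Mir30f hold the same values. The value of a microRNA gene in a list is that of its highest peak, and over several peaks of a gene the host comparison took the median. The labels give separate lines for the controls but do not say whether they came from separate embryos, so p-values measure the spread between these libraries only.

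The rule, thresholds and microRNA lists were chosen with earlier results of these data known. Named genes were those enriched over both comparators; the 10 highest and 5 lowest means over the knockout IP among genes with a peak in all 3 lists; the 10 highest over input in the knockout; the 5 with most peaks; and up to 5 of each list. Genes outside this rule appear as members of a cluster or a list, or are said to be chosen by value. Alternatives were other overlaps, thresholds, strands, host summaries and each control left out. Peak sequences were not analysed here.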

Additional observations from a re-analysis of the deposited data

Results flagged for a closer look

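Mir7009, within Anxa5, lay on opposite sides of 0 over input with and without Zmat3. Its log2 fold was 1.13 in the knockout and −1.27, −0.36 and −0.40 in controls 1 to 3. The difference was not tested, because 1 knockout library against 3 controls allows no exact permutation p below 0.25, and the −log10 p of the knockout peak was 0.845.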

How the results depend on the processing

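The counts depend on the overlap asked for and the comparisons on few enriched peaks; the cause of each shift below was not tested unless the alternative itself takes peaks away. With at least 50% of the microRNA gene covered, 185 peaks over 69 genes remained, and with the midpoint inside it 511 peaks. Enriched peaks over input in the controls averaged 3.67 with a log2 minimum of 4, 5.67 with a −log10 p minimum of 5 and 1.67 with 50% of the gene covered (5.5 to 11 with each control left out). Over the knockout IP they averaged 0.667 with a log2 minimum of 4 (0.5 to 2 with each control left out). In the knockout they numbered 4, 7 and 1 under those 3 alternatives. Genes enriched over both comparators fell to 1 with a log2 minimum of 4 and with 50% covered (1 to 2 with each control left out; without control 2 Mir6935 is lost, without control 3 Mir7031). The difference from the host over input was 0.21 with the mean of the host's peaks and −0.077 with 50% covered (0.31 to 0.36 with each control left out), and over the knockout IP −0.13 with the mean (−0.03 to 0). For genes numbered under 1000 it was 0.79 with the mean, 0.75 with at least 5 other host peaks and 1.29 with 50% covered. It was 1.13 on the microRNA's strand and 1 without host peaks within 1000 nt of a microRNA gene. With each control left out it was 0.74, since the control medians are equal. Over the knockout IP it was −0.093 with 50% covered (−0.66 to −0.36). Leaving out nearby host peaks, joining touching peaks and the overlap above 5 nt were chosen after seeing the data; joined peaks gave 810 peaks and 8 enriched in the knockout. Of 254 alternatives for named genes, 0 reversed and 1 moved (Mir1949). Of these, 178 left a control out, and they could not count as moved. A move was a shift beyond the SD of the same controls, which leaving a control out cannot give. Reversal was looked for only where a peak of the gene was enriched over that comparator. No paired analysis was possible because the inputs have no list of their own here and the knockout has 1 library. Depth cannot be judged without read counts: equal log2 folds recur, such as 2.31 in control 1 at Mir16-1 and Mir214, both with a −log10 p of 0.746.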
